A study of Mus musculus with 4 samples.

Results

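Colon RNA was measured for 10 genes that mark enteroendocrine cells, the hormone-releasing cells scattered through the gut lining: the granule proteins Chga and Chgb, the peptide hormones Gcg, Pyy, Insl5, Sst, Cck, Nts and Sct, and the serotonin-synthesis enzyme Tph1. They were taken by symbol, with every probe that the array carries for them, and are 10 of the 22162 genes kept. Each gene had 1 probe of 60 bases, and the 10 probes filled 37 spots on each array, because Chgb, Gcg and Sst were each printed 10 times. All 10 were well above background on all 4 arrays, so none was lost to the filter on dim probes, and 0 of their spots were flagged as outliers.

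The 4 single-colour arrays held 1 group each: X-KO DSS, X-KO naive, WT DSS and WT naive. X-KO mice carried the Pla2g10 knockout (-/-), and WT mice were wildtype (+/+) for this gene, whose product is a secreted phospholipase A2 (group X) that frees fatty acids from phospholipids. DSS mice drank 1% (w/v) dextran sulfate sodium, a polymer that damages the colon lining and causes colitis, and were sampled on day 7, whereas naive mice received none. All mice were C57BL/6, given as 9 weeks old and male under label tags that appear exchanged, while the housing notes give 8 weeks. RNA from the colons of 3 mice was mixed for each array, so a group has 1 value, no spread between mice can be given, and the number of arrays limits every comparison below.

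Enteroendocrine cells arise from crypt stem cells through the transcription factor Neurog3, and pack prohormones into dense-core granules, where convertases such as Pcsk1 and Pcsk2 cut them into active peptides. In the colon the main kinds are L cells, which release the proglucagon peptides GLP-1 and GLP-2 together with peptide YY and insulin-like peptide 5; enterochromaffin cells, which make serotonin with Tph1; and D cells, which release somatostatin. Their products act on epithelium, nerves and muscle to set secretion, motility, appetite and repair of the lining.

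The probes and start-site sequences below show what was hybridised and which short motifs stand around the starts of the genes whose DSS values are described later. The probes for Pyy, Insl5 and Nts (mm9 build, as in the file headers, all on the minus strand) are printed because these hormones were among those lower in X-KO DSS than in WT DSS colon; each holds at least 1 reading frame free of stop codons. The Pyy probe lies at chr11:101968311-101968370, the Insl5 probe at chr4:102690720-102690779 and the Nts probe at chr10:101944967-101945026.
Pyy probe: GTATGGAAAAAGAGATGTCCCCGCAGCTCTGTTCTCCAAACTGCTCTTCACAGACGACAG
Insl5 probe: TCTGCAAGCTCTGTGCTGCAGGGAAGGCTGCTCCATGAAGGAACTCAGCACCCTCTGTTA
Nts probe: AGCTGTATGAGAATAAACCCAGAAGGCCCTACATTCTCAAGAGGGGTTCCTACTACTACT

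RefSeq start-site windows (GRCm38.p6), from 250 bases before to 50 bases after the start, were available for all 10 genes, in 13 windows. The motifs searched on both strands were the cyclic AMP response element TGACGTCA, the E-box CAGATG and the TATA box TATAAA. TGACGTCA stood in the windows of Sst, with its first base at -48 from the start, and Chgb, at -72, and in 1.79% of all 32851 windows. CAGATG stood before Gcg at -139 and -83, Cck at -30, Insl5 at -178 and Sct at -242, and in 17.2% of all windows. TATAAA was found in 5 of the 13 windows, for 4 of the 10 genes (Gcg, Insl5, Sct and Chga), and in 13.6% of all windows. It stood at -24 in Gcg, -49 in Insl5 and -28 in Sct, on the opposite strand at -72 in Gcg and -88 in Insl5, and after the start, at +6, in Chga. No matches overlapped each other. The 150 bases before the start are shown for 4 genes, with the matched motif in capitals (TGACGTCA in Sst and Chgb, CAGATG in Gcg and Cck). With DSS, Sst was the member lower in both genotypes, Chgb and Gcg were higher in both, and Cck had the highest ratio in both. The printed stretches lie at chr16:23890845-23890994 on the minus strand (Sst), chr2:132781492-132781641 on the plus strand (Chgb), chr2:62483654-62483803 on the minus strand (Gcg) and chr9:121495695-121495844 on the minus strand (Cck).
Sst promoter: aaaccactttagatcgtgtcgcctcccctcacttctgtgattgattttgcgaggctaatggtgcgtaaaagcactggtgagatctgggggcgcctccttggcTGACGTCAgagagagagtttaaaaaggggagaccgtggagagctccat
Chgb promoter: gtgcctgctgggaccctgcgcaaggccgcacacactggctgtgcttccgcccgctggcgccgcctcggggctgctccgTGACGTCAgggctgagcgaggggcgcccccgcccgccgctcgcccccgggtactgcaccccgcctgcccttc
Gcg promoter: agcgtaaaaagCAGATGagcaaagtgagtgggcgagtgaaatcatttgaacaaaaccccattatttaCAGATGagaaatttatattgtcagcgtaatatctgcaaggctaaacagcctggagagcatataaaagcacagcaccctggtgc
Cck promoter: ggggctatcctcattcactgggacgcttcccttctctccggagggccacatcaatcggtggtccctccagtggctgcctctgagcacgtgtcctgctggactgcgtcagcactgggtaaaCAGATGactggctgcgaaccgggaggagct

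A relative signal is the spot intensity divided by the 75th percentile of its array, so 1 equals that percentile. The targeted gene came first as a check of the labels: Pla2g10 had a relative signal of 0.997 in X-KO DSS and 1.70 in X-KO naive colon, against 19.1 in WT DSS and 15.9 in WT naive colon. Whether its probe (chr16:13715169-13715228, mm9) lies in the deleted part is not given by the labels. Between 67.7% and 70.4% of spots were well above background on each array and 0 were saturated. Over 399 probes printed more than once, the median SD between spots was 0.0618 to 0.0718 log2 across arrays, so a ratio of 2 single spots carries a spot error of about 0.10 on the log2 scale, which covers scanning and printing only.

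With DSS, most of the enteroendocrine genes had more signal than in naive colon, in both genotypes. X-KO DSS colon was above X-KO naive colon for 8 of 10 genes, where 38.9% of all genes tested had a ratio above 0 and 61.0% one below, and the median log2 ratio of the 10 genes was 0.28, against -0.13 over all genes. WT DSS colon was above WT naive colon for 9 of 10 genes, where 47.2% of all genes were above and 50.5% below 0, with a median of 0.67, against -0.01 over all genes. At 2-fold or more, 1 gene (Cck) was higher in X-KO DSS colon and 2 genes (Cck and Tph1) were higher in WT DSS colon, where 5.94% and 3.49% of all genes were 2-fold higher. None of the 10 was 2-fold lower, where 5.22% of all genes in X-KO and 5.36% in WT colon were. In whole tissue, more cells of a kind and more RNA per cell cannot be told apart.

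**Figure D1:**
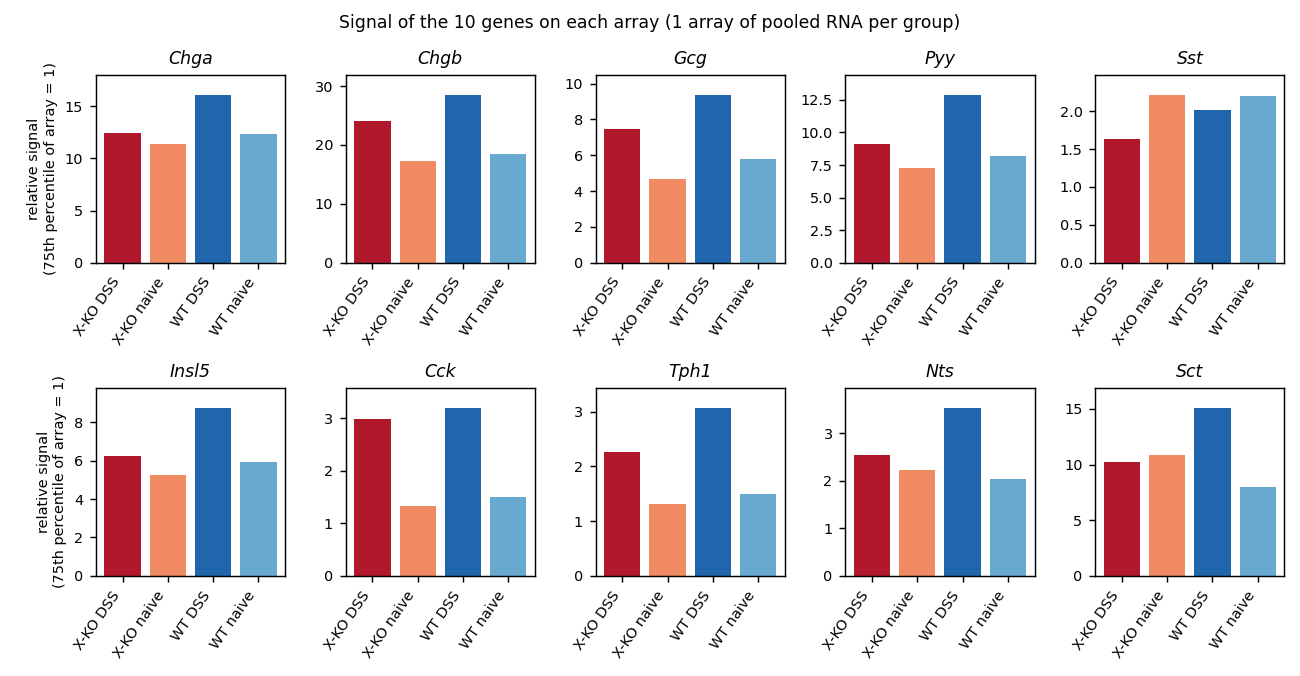
Relative signal (75th percentile of the array set to 1) of the 10 genes on each of the 4 arrays, with 1 bar per array of RNA mixed from 3 mice and axes starting at 0. WT DSS is the highest bar for 9 genes, and Sst is the exception, with its lowest bar in X-KO DSS.

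Chromogranins A and B are acidic proteins of the dense-core granule shared by most enteroendocrine cells. Chga (probe at chr12:103803083-103803142, mm9) had a relative signal of 12.5 in X-KO DSS and 11.4 in X-KO naive colon, and 16.1 in WT DSS and 12.3 in WT naive colon. WT DSS stood above the other 3 arrays, which lay close together. The DSS ratio was log2 0.13 in X-KO and log2 0.39 (1.31-fold) in WT colon.

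Chgb (probe at chr2:132620703-132620762) had 10 spots per array and averaged 24.1 ± 0.849 in X-KO DSS and 17.3 ± 0.483 in X-KO naive colon (SD, n = 10 spots of 1 array). The WT arrays averaged 28.5 ± 0.958 with DSS and 18.5 ± 0.677 without (SD, n = 10 spots of 1 array). The spots of both DSS arrays lay above those of both naive arrays, and the X-KO DSS spots (22.6 to 25.4) lay below the WT DSS spots (27.1 to 30.3). This spread is between spots on an array and says nothing of the spread between mice. Chgb was 1.39-fold higher with DSS in X-KO (log2 0.47) and 1.54-fold higher in WT colon (log2 0.63).

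The L-cell genes were all higher with DSS than in naive colon. Gcg (chr2:62312685-62312744), which encodes proglucagon, averaged 7.48 ± 0.276 in X-KO DSS and 4.68 ± 0.221 in X-KO naive colon (SD, n = 10 spots of 1 array). In WT colon it averaged 9.40 ± 0.415 with DSS and 5.80 ± 0.272 without (SD, n = 10 spots of 1 array). The arrays kept one order without overlap of their spots, WT DSS above X-KO DSS above WT naive above X-KO naive, with X-KO DSS spots from 7.11 to 7.99 and WT DSS spots from 8.74 to 10.06. The DSS ratio of Gcg was almost the same in both genotypes, at 1.60-fold in X-KO (log2 0.68) and 1.62-fold in WT colon (log2 0.70), and the X-KO array was lower than its WT counterpart by a like ratio with DSS (1.26-fold) and in naive colon (1.24-fold).

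Pyy, whose peptide slows gut transit and reduces appetite, had a relative signal of 9.08 in X-KO DSS and 7.30 in X-KO naive colon, and 12.9 in WT DSS and 8.23 in WT naive colon. It was 1.24-fold higher with DSS in X-KO (log2 0.31) and 1.57-fold higher in WT colon (log2 0.65). Insl5, an L-cell peptide of the distal colon, had 6.23 in X-KO DSS and 5.26 in X-KO naive colon, and 8.74 in WT DSS and 5.95 in WT naive colon. Its DSS ratio was 1.19-fold in X-KO (log2 0.25) and 1.47-fold in WT colon (log2 0.56). For both hormones WT DSS was the highest array and X-KO naive the lowest.

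**Figure D2:**
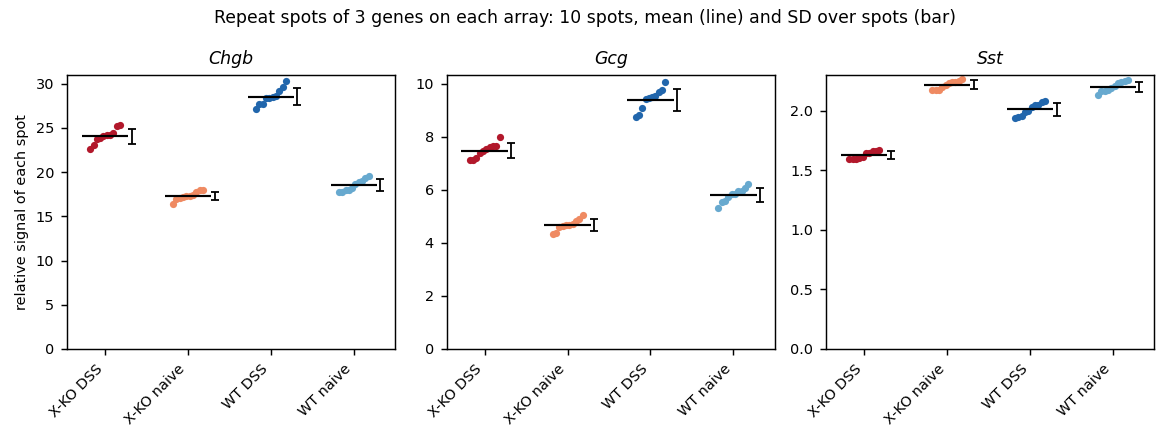
Relative signal of each of the 10 repeat spots of Chgb, Gcg and Sst on the 4 arrays (points), with the mean (line) and the SD over spots (bar). For Chgb and Gcg the DSS spots lie above the naive spots of the same genotype, and for Sst the X-KO DSS spots (1.60 to 1.67) lie below all others.

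Sst, the inhibitory hormone of D cells and also of some enteric neurons, was the only one of the 10 with a ratio below 0 in both genotypes. Its 10 spots (chr16:23889776-23889835) averaged 1.63 ± 0.0314 in X-KO DSS and 2.22 ± 0.0356 in X-KO naive colon, and 2.01 ± 0.0517 in WT DSS and 2.20 ± 0.0431 in WT naive colon (SD, n = 10 spots of 1 array each). X-KO DSS spots did not overlap those of any other array, whereas the spots of the naive arrays overlapped, from 2.18 to 2.27 in X-KO and from 2.13 to 2.26 in WT colon. Sst was 1.36-fold lower with DSS in X-KO (log2 -0.45) and 1.09-fold lower in WT colon (log2 -0.13). The WT value was 0.01 when arrays were scaled to their median, where the median of all genes in that comparison was 0.11, against -0.01 with the 75th percentile.

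Cck, the hormone of I cells that contracts the gallbladder and signals satiety, had the highest DSS ratio of the 10 in both genotypes. Its relative signal (chr9:121398943-121399002) was 2.97 in X-KO DSS and 1.33 in X-KO naive colon, and 3.19 in WT DSS and 1.49 in WT naive colon. Both DSS arrays stood well above both naive arrays, and the genotypes lay close together within each treatment. Cck was 2.23-fold higher with DSS in X-KO (log2 1.16) and 2.13-fold higher in WT colon (log2 1.09), ratios that 4.86% and 2.99% of all genes reached.

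Nts encodes neurotensin, a peptide of N cells that acts on motility, secretion and fat uptake. Its relative signal was 2.53 in X-KO DSS and 2.22 in X-KO naive colon, and 3.53 in WT DSS and 2.04 in WT naive colon, so that WT DSS stood apart from the other 3 arrays. The DSS ratio was 1.14-fold in X-KO (log2 0.19) and 1.73-fold in WT colon (log2 0.79).

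Sct encodes secretin, which stimulates bicarbonate secretion and is made by S cells and other enteroendocrine cells. Its relative signal (chr7:148464238-148464297) was 10.2 in X-KO DSS and 10.9 in X-KO naive colon, and 15.1 in WT DSS and 8.02 in WT naive colon. The DSS ratio ran in opposite directions: 1.07-fold lower in X-KO (log2 -0.09, inside the spot error given above) and 1.88-fold higher in WT colon (log2 0.91). The X-KO array was above its WT counterpart in naive colon (1.36-fold) and below it with DSS (1.48-fold).

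Tph1 catalyses the rate-limiting step of serotonin synthesis in enterochromaffin cells. Its relative signal (chr7:53902553-53902612) was 2.26 in X-KO DSS and 1.32 in X-KO naive colon, and 3.07 in WT DSS and 1.50 in WT naive colon. Both DSS arrays were above both naive arrays, at 1.72-fold in X-KO (log2 0.78) and 2.05-fold in WT colon (log2 1.03). Mouse mast cells can express Tph1 too, and mast-cell markers were mostly higher with DSS as well: the median log2 ratio of those measured was 2.41 in X-KO (9 of 11 listed) and 0.95 in WT colon (8 of 11). Markers dim in naive colon were set to a bound in these ratios. The summed signal of the 9 markers was lower with DSS in WT colon (1.82 against 2.59), and 2.83 against 2.70 in X-KO. In X-KO DSS over WT DSS all 9 markers were above 0 (median 1.22), where 38.5% of all genes were, and Tph1 was 1.36-fold lower. The part of mast cells in the Tph1 values was not tested.

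**Figure D3:**
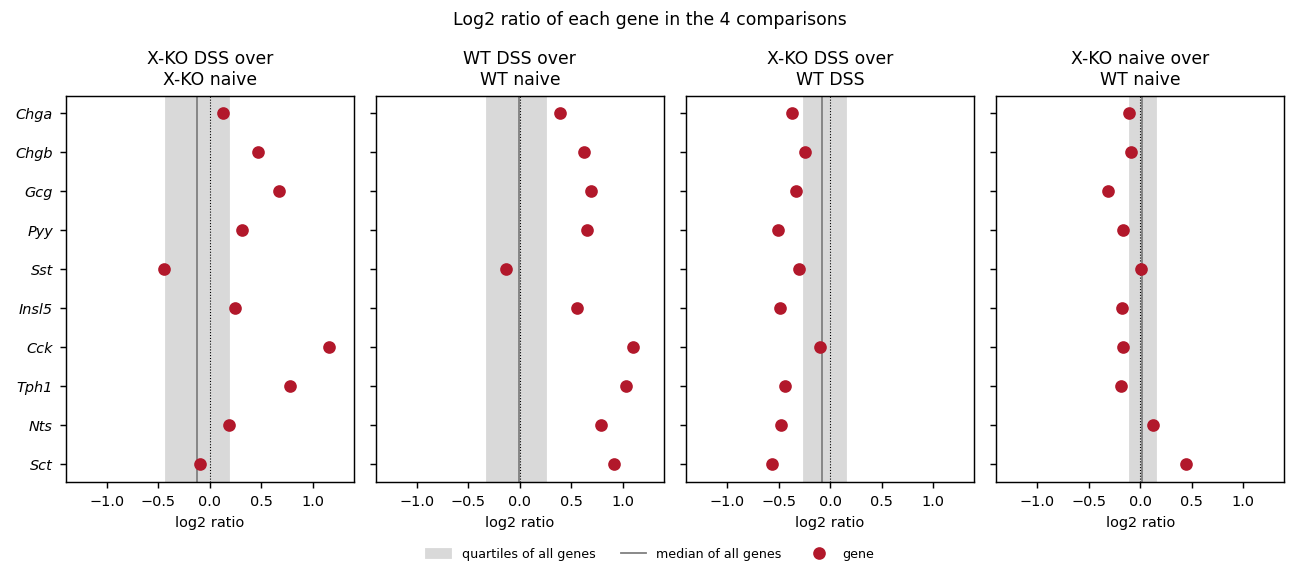
Log2 ratio of each of the 10 genes (points) in the 4 comparisons, with the quartile range of all genes (grey band) and their median (grey line). In X-KO DSS over WT DSS all 10 points lie below 0, and 8 of 10 and 9 of 10 lie above 0 for DSS over naive in X-KO and in WT colon.

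Between genotypes with DSS, all 10 genes had less signal in X-KO DSS than in WT DSS colon, where 60.6% of all genes were below 0 and 38.5% above. The median log2 ratio was -0.41, against -0.08 over all genes, and single ratios ran from 1.48-fold lower (Sct, log2 -0.57) through Pyy (1.42-fold lower, log2 -0.51), Insl5 (1.40-fold, log2 -0.49) and Nts (1.39-fold, log2 -0.48) to Cck (1.07-fold, log2 -0.10, about the size of the spot error). None reached 2-fold, where 2.26% of all genes were 2-fold lower and 5.23% 2-fold higher. Each of the 10 stayed below 0 under median scaling, quantile normalization and normexp background correction. Cck was then at -0.01 under quantile normalization and -0.004 under normexp, inside the spot error, so its side of 0 is not settled. The scale of epithelial markers, described below, adds 0.39 log2 to every gene alike in this comparison.

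In naive colon, 7 of 10 genes were lower in X-KO than in WT, where 45.2% of all genes were lower and 54.6% higher, and none reached 2-fold, where 1.1% were 2-fold lower and 1.19% 2-fold higher. The median log2 ratio was -0.14, against 0.02 over all genes. The ratio furthest below 0 was that of Gcg (1.24-fold lower, log2 -0.31), and the 3 genes above 0 were Sct (log2 0.44), Nts (log2 0.12) and Sst (log2 0.01). The Sst value was inside the spot error and lay just below 0 under median scaling, quantile normalization and normexp.

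The difference of the DSS responses, X-KO minus WT, was below 0 for 9 of 10 genes, and above 0 for 1, where 60.0% of all genes were below and 40.0% above, with a median of -0.28 log2, against -0.09 over all genes. It was -1.01 for Sct, the single member at 2-fold or more, where 2.1% of all genes were 2-fold lower and 3.61% 2-fold higher, and -0.60 for Nts. Gcg at -0.02 and Cck at 0.06 had nearly equal responses in both genotypes, and the others lay between -0.15 (Chgb) and -0.34 (Pyy). With 1 array per group this difference has no test.

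The mean DSS effect over both genotypes was tested with an additive limma fit across all 22162 genes, and none of the 10 genes passed an adjusted p under 0.05. Cck had a mean effect of 1.13 ± 0.159 log2 (SE, limma adjusted p = 0.208), Tph1 0.91 ± 0.173 (limma adjusted p = 0.215), Gcg 0.69 ± 0.158 (limma adjusted p = 0.23) and Chgb 0.55 ± 0.164 (limma adjusted p = 0.254). These 4 genes had an unadjusted p under 0.05, as did 18.5% of all genes, and 0.0% of all genes passed after adjustment. Adjusted p over the 10 genes ran from 0.208 to 0.527 in limma. In simulated data this fit recovered 0% of genes changed by 1 or 2 log2 units, so a member that missed the threshold is not shown to be level. Restricting the fit to probes well above background on all 4 arrays called Cck (limma adjusted p = 0.0295) and Tph1 (limma adjusted p = 0.046), with 5.62% of all genes called. With eBayes trend and robust, Cck (limma adjusted p = 0.00652), Tph1 (limma adjusted p = 0.0155) and Gcg (limma adjusted p = 0.0404) were called, with 6.91% of all genes. For the mean genotype effect the limma adjusted p was 0.999 for every one of the 10. None had an unadjusted p under 0.05, where 3.84% of all genes did, and 0.0% of all genes were called. The targeted gene Pla2g10, at -3.74 ± 0.330 log2 (SE), missed the threshold too (limma adjusted p = 0.945). This fit therefore cannot show that a member is level between genotypes. With trend and robust 0.0316% of all genes were called, none of them a member.

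Set against Chga on the same array, most of the genes were higher with DSS. The ratio to Chga was higher with DSS in both genotypes for Cck (log2 1.02 in X-KO, 0.70 in WT), Tph1 (0.65 in X-KO, 0.64 in WT), Gcg (0.54 in X-KO, 0.30 in WT), Chgb (0.34 in X-KO, 0.24 in WT), Pyy (0.18 in X-KO, 0.26 in WT), Insl5 (0.11 in X-KO, 0.16 in WT) and Nts (0.06 in X-KO, 0.40 in WT). It was lower for Sst in both (-0.58 in X-KO, -0.52 in WT). Sct was lower relative to Chga in X-KO (-0.23) and higher in WT colon (0.52). Each of these values compares a pair of ratios, so its spot error is larger than the 0.10 given above for a ratio of single spots. The X-KO values of Nts (0.06) and Insl5 (0.11) are about that size, so their side of 0 is not settled. Insl5 in WT (0.16) and Pyy in X-KO (0.18) lie little above it. A ratio to Chga does not depend on the array's scaling factor, and shows only that the genes differed unequally, not which of them stayed level.

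Other genes of the enteroendocrine programme did not follow the hormones as a block. In the granule and prohormone processing list, 20 of 24 genes were below 0 with DSS in X-KO (median log2 -0.27), where 61.0% of all genes were (median -0.13). In WT colon 18 of 24 were below 0 (median -0.18), where 50.5% of all genes were (median -0.01). Chga and Chgb were above 0 in both. Pcsk1, the prohormone convertase that releases GLP-1, was at log2 -0.65 with DSS in X-KO and -0.14 in WT colon. Cpe, the carboxypeptidase that trims the cut peptides, was at -0.37 in both. Ddc, the decarboxylase that completes serotonin synthesis after Tph1, was at -0.63 in X-KO and -0.20 in WT colon. Syt13, a synaptotagmin-family protein, went the other way, at 1.08 in X-KO and 0.37 in WT colon. Between genotypes with DSS, 19 of the 24 processing genes were lower in X-KO (median -0.21), where 60.6% of all genes were (median -0.08). On the epithelial scale, which adds the same offset to all genes, the list median was 0.18 and that of all genes 0.30.

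Of 15 transcription factors, 12 were kept. Their median with DSS was 0.15 in X-KO and -0.01 in WT colon, against -0.13 and -0.01 over all genes. The WT median of the factors turned above 0 under median scaling, quantile normalization and normexp. Neurog3, which starts the lineage, had a relative signal of 0.951 in X-KO DSS and 0.662 in X-KO naive colon (log2 0.52), and its DSS ratio in WT colon was 0.04. Insm1, a factor of early endocrine progenitors, was at 0.48 in X-KO and 0.30 in WT colon.

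Among 12 other gut hormones kept of 14, 9 were above 0 with DSS in each genotype, where 38.9% of all genes in X-KO and 47.2% in WT colon were. The median was 0.63 in X-KO (-0.13 over all genes) and 0.34 in WT colon (-0.01 over all genes). Iapp (log2 1.23 in X-KO, 1.11 in WT) and Ppy (0.50 in X-KO, 0.66 in WT), both known mainly from pancreatic islets, were above 0 in both. Tac1, the substance P gene of enterochromaffin cells and neurons, was at 1.57 in X-KO and 1.01 in WT colon. Vip, a peptide of enteric neurons, was at 1.56 in X-KO and 0.21 in WT colon. Guca2a, the guanylin gene of surface epithelium, was at -0.66 in X-KO and 0.25 in WT colon.

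On the receiving side, 21 of 26 hormone receptor genes were kept. Their median with DSS was -0.43 in X-KO and -0.07 in WT colon, against -0.13 and -0.01 over all genes. The WT median turned above 0 under median scaling, quantile normalization and normexp. Sstr1, a somatostatin receptor, was 4.33-fold lower with DSS in X-KO (0.600 against 2.60) and 2.63-fold lower in WT colon (1.23 against 3.24). Npy1r, a receptor of the neuropeptide Y and peptide YY family, was at log2 -1.03 in X-KO and -0.98 in WT colon. Of the serotonin receptors, Htr4 was at -1.47 in X-KO and -0.71 in WT colon, and Htr7 was at 1.94 in X-KO and 0.68 in WT colon.

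Serotonin is removed by the transporter Slc6a4 and degraded by the monoamine oxidases Maoa and Maob. Slc6a4 had a relative signal of 0.163 in X-KO DSS and 0.622 in X-KO naive colon, and 0.368 in WT DSS and 0.661 in WT naive colon. This was 3.82-fold lower with DSS in X-KO and 1.80-fold lower in WT colon, opposite in direction to Tph1. Maoa was at log2 -1.29 in X-KO and -0.11 in WT colon and Maob at -1.25 in X-KO and -0.58 in WT colon. Ido1, which diverts tryptophan, the starting material of serotonin, was 20.6-fold higher with DSS in X-KO and 8.21-fold higher in WT colon. The 7 clearance genes kept of 10 had a median of -0.81 in X-KO and -0.27 in WT colon, against -0.13 and -0.01 over all genes.

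Of the 14 sensing genes kept of 16, Ffar4, a long-chain fatty acid receptor, was at log2 0.88 with DSS in X-KO and 0.51 in WT colon. Trpa1, an irritant channel of enterochromaffin cells, was at 1.38 in X-KO and 0.39 in WT colon. Slc5a1, the sodium-glucose cotransporter, was at -1.01 in X-KO and -0.68 in WT colon, and the mechanosensor Piezo2 at -0.29 in X-KO and -1.14 in WT colon. The list medians were -0.21 in X-KO and -0.09 in WT colon, against -0.13 and -0.01 over all genes. Both list medians lay above 0 under normexp, as did the WT median under quantile normalization and the X-KO median on the epithelial scale.

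Several of the 10 genes are also expressed in pancreatic islets, and pancreatic acinar markers differed widely between the arrays. The 15 acinar markers kept of 16 summed to a relative signal of 10.2 in X-KO DSS and 7.27 in X-KO naive colon, and 38.7 in WT DSS and 8.16 in WT naive colon. Cela1 alone gave 6.56 of the X-KO naive and 7.47 of the WT naive sum. With DSS, 14 of the 15 were above 0 and 1 was below in each genotype, where 38.9% of all genes in X-KO and 47.2% in WT colon were above. Their median log2 ratio was 2.63 in X-KO and 5.03 in WT colon, with markers dim in naive colon set to a bound. All 15 were lower in X-KO DSS than in WT DSS colon (median log2 -2.33), where 60.6% of all genes were, and so were 6 of the 8 islet markers kept of 12 (median -0.27). The islet markers summed to 3.19 in X-KO DSS and 4.23 in X-KO naive colon, and 3.80 in WT DSS and 4.71 in WT naive colon. Without Ttr, left out after seeing the data, the other 7 summed to 2.77 in X-KO DSS and 2.55 in X-KO naive colon, and 2.99 in WT DSS and 2.69 in WT naive colon. The insulin gene Ins2 was nearly level, at 0.201 in X-KO DSS, 0.202 in X-KO naive, 0.209 in WT DSS and 0.238 in WT naive colon. Ins1 was at 0.0174 in X-KO DSS, 0.155 in X-KO naive, 0.0231 in WT DSS and 0.0289 in WT naive colon, and 4 islet markers (Slc2a2, Pdx1, G6pc2 and Slc30a8) were not well above background on any array. The islet list shares Iapp, Ppy and Npy with the list of other gut hormones.

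Enteric neurons can also express Sst and Cck, and the 16 neuron markers summed to 15.6 in X-KO DSS and 16.1 in X-KO naive colon, and 15.5 in WT DSS and 16.3 in WT naive colon. Their median log2 ratio with DSS was -0.06 in X-KO and -0.20 in WT colon, against -0.13 and -0.01 over all genes. The X-KO median of the neuron markers lay above 0 under median scaling and on the epithelial scale. The mast-cell markers kept (9 of 11) summed to 2.83 in X-KO DSS and 2.70 in X-KO naive colon, and 1.82 in WT DSS and 2.59 in WT naive colon. Genes that mark the position along the colon also differed with DSS. The 11 of 12 kept had a median log2 ratio of -0.47 in X-KO and -0.38 in WT colon, against -0.13 and -0.01 over all genes. These 11 summed to 20.5 in X-KO DSS and 38.8 in X-KO naive colon, and 30.0 in WT DSS and 39.8 in WT naive colon. Hoxb13, which marks the distal colon, where Insl5 and Pyy are also most expressed, was at -1.01 in X-KO and -0.38 in WT colon. The part of these tissues and of the sampled position in the hormone values was not tested.

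Epithelial markers differed between the genotypes too, and their part in the hormone values was not tested beyond the rescaling given next. The 12 epithelial markers (Epcam, keratins and others) summed to a relative signal of 535 in X-KO DSS and 648 in X-KO naive colon, and 671 in WT DSS and 546 in WT naive colon. All 12 were lower in X-KO DSS than in WT DSS colon (median log2 -0.29), where 60.6% of all genes were, and all 12 were higher in X-KO naive than in WT naive colon (median 0.24), where 54.6% of all genes were. With DSS, 11 of 12 were below 0 in X-KO (median -0.28), where 61.0% of all genes were, and 10 of 12 were above 0 in WT colon (median 0.29), where 47.2% of all genes were.

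Each array was also scaled to the median of these 12 markers in place of the 75th percentile, a choice made after seeing the data. This adds 1 offset to every gene of a comparison, so the members keep their place among all genes and only the zero point moves. The DSS ratios were then above 0 for 9 of 10 genes in X-KO (median 0.54, against 0.13 over all genes, of which 61.6% were above 0) and for 9 of 10 in WT colon (median 0.40, against -0.28 over all genes, of which 23% were above 0). Cck was at log2 1.42 in X-KO and 0.82 in WT colon, and Tph1 at 1.04 in X-KO and 0.76 in WT colon. Sst was below 0 on this scale too, at -0.19 in X-KO and -0.41 in WT colon.

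In X-KO DSS over WT DSS, the offset of 0.39 put 5 members above and 5 below 0 (median -0.02), from 0.29 for Cck to -0.18 for Sct, while 83.6% of all genes were above 0 (median 0.30). The median of the members lay below that of all genes by 0.31 on this scale and by 0.32 on the 75th percentile scale. In naive colon 9 of 10 genes were lower in X-KO per epithelial signal (median -0.29, with Gcg at -0.46), where 74% of all genes were (median -0.13). The difference of DSS responses was above 0 for 8 of 10 genes (median 0.25, with Sct at -0.47 and Nts at -0.07), where 90% of all genes were (median 0.44).

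**Figure D4:**
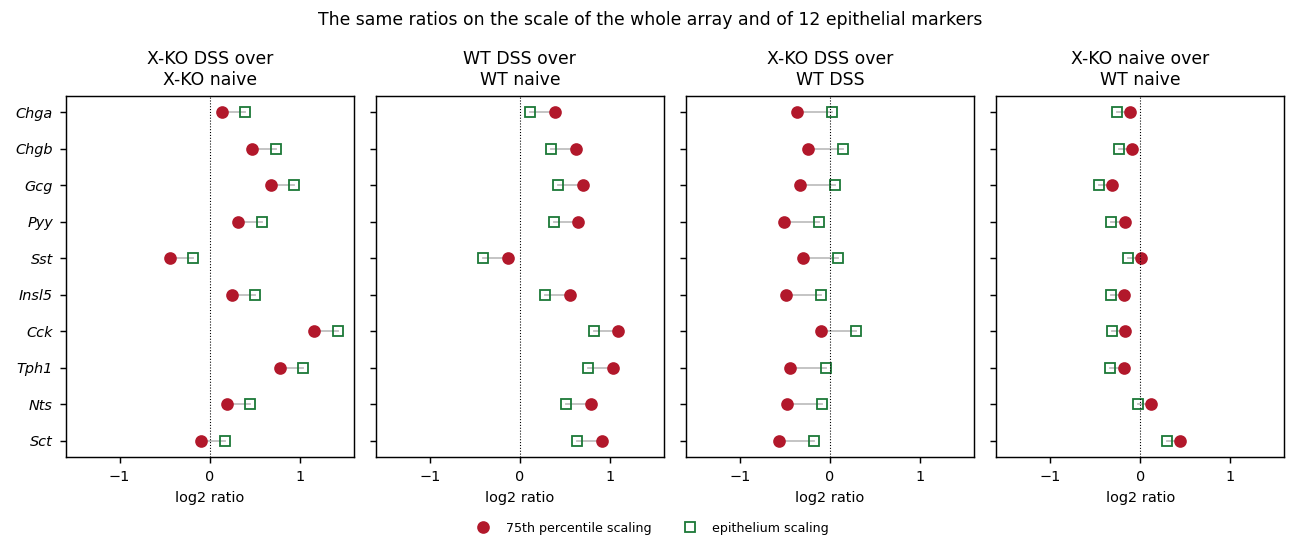
Log2 ratio of the 10 genes scaled to the 75th percentile of the array (filled circles) and to the median of 12 epithelial markers (open squares) in the 4 comparisons. The DSS ratios keep their side of 0 for all genes but Sct in X-KO, and in each panel the squares are the circles moved by 1 offset that applies to all genes alike (0.39 in X-KO DSS over WT DSS, where the median of all genes becomes 0.30).

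For the members that spanned at least 1 log2 unit over the 4 arrays, the genes with the most similar pattern were found among 19322 genes well above background on every array, by the root mean square distance of centred log2 values. For Cck these were Iapp (distance 0.0399), Pla2g5 (0.0550) and Nt5c1a (0.0565). For Tph1 they were Arg2 (0.0476), Areg (0.0511) and Grhl3 (0.0610), and for Gcg they were Pole2 (0.0581), Mrps11 (0.0601) and Ppy (0.0634). These likenesses rest on 4 arrays and are descriptions only.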

How the data were processed

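Colon RNA of 4 groups was hybridised to 1 single-colour Agilent array per group, from 200 ng of total RNA, per the labels' protocols. The deposited scanner files give spot intensities, background-subtracted and detrended within the array with Agilent Feature Extraction 11.5.1.1, per the submitters' processing notes and the file headers. The deposited series table holds a ratio, the processed intensity over a constant close to the array's 75th percentile, as the values show. Control spots (1377 per array) and 129 to 136 outlier spots were left out, log2 signals were set to the array's 75th percentile, repeat spots were averaged, and probes well above background on 1 or more arrays were kept (28720 of 39429), with the brightest probe for each gene. A gene dim on 1 array of a comparison was given that array's lowest well-measured signal as a bound. Symbols came from the files and a RefSeq table (27508 probes matched by accession, 3544 by symbol, 404 by older symbol; 7973 kept the file's name).

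Log2 ratios of the 4 pairs of arrays carry no test. Mean effects were fitted with limma 3.58.1 in R 4.3.3 (lmFit and eBayes, both factors, 1 residual degree of freedom), with Benjamini-Hochberg adjustment over all genes. A response that differs between genotypes enlarges the error of this fit. The fitting script was tested on simulated data, with 50 genes for each size of change. It recovered 0% of genes changed by 1 or 2 log2 units, for either effect. At 4 log2 units it recovered 74% for DSS and 70% for genotype. False calls numbered 6 for DSS and 4 for genotype. Alternatives were median scaling, quantile normalization, normexp (offset 50) with quantile normalization, the deposited table, the mean of a gene's probes, probes well above background on all 4 arrays, measured dim values, and eBayes with trend and robust; epithelial scaling was added after seeing the data. The members and the gene lists were chosen with earlier results of these data known. The text names all 10 members, the targeted gene, up to 4 genes of each list per comparison with the largest absolute ratio, and 3 genes of like pattern for each member spanning 1 log2 unit. Genes named in 1 comparison are also given in others, and Ins2 and the dim islet markers lie outside the rule; those were chosen after their values were seen. Genomic annotation of the mm9 probe positions was not used here.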

Additional observations from a re-analysis of the deposited data

Results flagged for a closer look

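In 3 genes the same contrast ran in opposite directions in both settings, each resting on single arrays, and the difference was not tested. Sct was 1.07-fold lower with DSS in X-KO and 1.88-fold higher in WT colon, a difference of -1.01 log2 (X-KO minus WT). The X-KO ratio of Sct was within the spot error, and was log2 0.17 on the epithelial scale. The same 4 values give Sct 1.48-fold lower in X-KO than in WT with DSS and 1.36-fold higher in naive colon, again a difference of -1.01 log2 (DSS minus naive). Nts was 1.39-fold lower in X-KO than in WT with DSS and 1.09-fold higher in naive colon, a difference of -0.60 log2. The naive ratio of Nts (log2 0.12) was little above the spot error, and was -0.02 on the epithelial scale. Sst was 1.23-fold lower in X-KO than in WT with DSS and 1.01-fold higher in naive colon, a difference of -0.32 log2, and its naive ratio was within the spot error.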

How the results depend on the processing

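No paired analysis was possible because each group has 1 array and the labels give no shared replicate numbers, and leaving out a replicate was not possible for the same reason. Of the counts compared with an alternative, 154 stayed within 1.5 times their first value and 20 did not. The 154 include settings that could not move a member count, named at the end of this paragraph. Under median scaling 0 of the 10 genes were below 0 in WT DSS over WT naive, and 0 had a difference of DSS responses above 0. Under quantile normalization, with or without normexp, 1 gene was 2-fold higher in WT DSS than in WT naive colon (Cck, with Tph1 at log2 0.96 and 0.97), 0 had a difference of responses of 2-fold or more below 0 (Sct at -0.81 and -0.79), and 3 had one above 0. With epithelial scaling, 2 genes were 2-fold higher with DSS in X-KO and 0 in WT colon, 1 was below 0 with DSS in X-KO, 1 was above 0 in X-KO naive over WT naive, 5 were above and 5 below 0 in X-KO DSS over WT DSS, and the difference of responses was above 0 for 8, below 0 for 2 and 2-fold lower for 0, so that its majority changed side; this scaling adds 1 offset per comparison to all genes, whose median difference of responses became 0.44. The limma fit called 1086 genes for the DSS effect with probes well above background on all 4 arrays, where fewer genes are tested, and 1532 with trend and robust; for genotype it called 7 with trend and robust. What caused these changes in the limma calls, and the other shifts, was not tested. The deposited table, itself scaled close to the 75th percentile, moved no member ratio by more than 0.000176 log2. The mean of probes, the stricter filter and measured dim values could not move a member ratio. Each member has 1 probe, which was well above background on all 4 arrays, so these settings are no check of the members.

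With 1 array per group, no ratio has an error between mice, and spot error covers printing and scanning only. The fit has 1 residual degree of freedom, so a gene that missed the threshold is not shown to be level. All 10 genes were well above background and unsaturated, so signal over background does not limit their ratios.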
